A study of Rattus norvegicus with 2 samples.

Results

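Lysozyme, MHC class II and other macrophage and leukocyte genes were followed in cultured rat endothelial cells of 2 origins. The set held 10 genes, Lyz2, Ctss, Cd53, Cd74, RT1-Da, RT1-Db1, RT1-Ba, Cd14, Pf4 and Ptprc, read by 20 probe sets of the 8740 that are not array controls. A probe set belonged to a gene when the platform annotation gave that symbol alone, as it did for 7006 probe sets. The genes were picked with their intensities on these arrays known, so every value below is a description.

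The cells came from the aorta and from the endocardium, the inner lining of the heart chambers, of 2 rats. The cells of the rats were pooled by origin, grown for 2 passages at matched confluence, and total RNA from each pool was put on 1 Affymetrix rat U34A array. No drug, gene change or other agent is named for either culture, and strain, age and sex are not given in the sources used here. Each origin was thus 1 pooled culture and 1 array, so differences have no replicate check and were not tested. The arrays also differed in 2 settings, the fluidics module and the scan time, which cannot be told apart from origin. That the cultures are endothelial comes from the labels, and endothelial markers were mixed. Vwf, Pecam1 and Kdr lay at or under 393.3 on both arrays, below the floor given next, as did Icam2 and Gja4. Thbd, the thrombin-binding protein thrombomodulin, read 3920.6 in aortic and 2848.2 in endocardial cells with 1 of 2 probe sets. Edn1, the endothelin precursor, read 1873.9 and 4094.6. Flt1, Ace and 4 of 6 probe sets of Nos3, the endothelial nitric oxide synthase, passed the floor on both arrays. The stricter background limit, also given next, was passed by Ace and 1 Nos3 probe set in aortic cells alone, and not by Flt1. The smooth muscle actin Acta2 and the collagen Col1a1 read 24711.4 or more on both.

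Intensities are in arbitrary units, can fall below 0, and were scaled to the same trimmed mean. They are read against 2 limits. The floor, 635.4, is the median of all scaled intensities. The background limit, 1742.4, is the highest value among 38 control probe sets for opposite-strand, bacterial, yeast and mouse sequences. These were taken to find no target in the RNA used, which was not checked. Of the 38, 7 exceeded the floor in aortic and 6 in endocardial cells. Among the 7006 single-symbol probe sets, 32.6% exceeded the background limit in aortic and 32.7% in endocardial cells. Ratios are endocardial over aortic. Where the dimmer value is at or under a limit, the fold is a lower bound taken against that limit.

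Lyz2 was the one member more than 2-fold apart by the stricter limit, at least 19.3-fold brighter in endocardial cells. Ctss, Cd74, RT1-Da, Cd53 and Pf4 were brighter there too, but passed 2-fold only against the floor. Cd14 and RT1-Db1 gave signal in both cultures within 2-fold, RT1-Ba went both ways by probe set, and Ptprc stayed under the background limit throughout.

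Macrophages engulf particles and microbes, digest them in lysosomes and show peptide fragments on MHC class II molecules to helper T cells. Each class II molecule pairs an alpha and a beta chain. It is assembled with the invariant chain, Cd74, which blocks the groove until lysosomal proteases such as cathepsin S, Ctss, cut it away. Professional antigen-presenting cells make these molecules constantly, and many other cells, endothelium among them, can make them after exposure to interferon gamma. The class II genes and Cd74 share a promoter module in which RFX binds the X box and NF-Y binds the Y box, and the coactivator CIITA joins the factors bound there.

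The promoters of the class II chains are shown because these chains did not move alike on the arrays. Capitals mark ATTGG, the core letters of the Y box, and GCAAC, letters at the core of the X box, on either strand, so CCAAT and GTTGC are the same motifs read from the opposite strand. GCAAC and the spacing described below were chosen after the sequences had been seen. Each stretch has 300 bases from RefSeq on GRCr8, with 250 before and 50 after the start used by that table, written 5′ to 3′ along the gene. RT1-Da lies on the plus strand at chr20:4515165-4515464, RT1-Db1 on the minus strand at chr20:4560113-4560412, RT1-Ba on the plus strand at chr20:4576807-4577106 and Cd74 on the plus strand at chr18:56526956-56527255.
RT1-Da: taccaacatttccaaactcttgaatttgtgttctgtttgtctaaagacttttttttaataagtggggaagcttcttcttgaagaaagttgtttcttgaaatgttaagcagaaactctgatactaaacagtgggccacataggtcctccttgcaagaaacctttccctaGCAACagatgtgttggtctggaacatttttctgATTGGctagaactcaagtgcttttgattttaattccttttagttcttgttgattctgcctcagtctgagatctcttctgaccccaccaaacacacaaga
RT1-Db1: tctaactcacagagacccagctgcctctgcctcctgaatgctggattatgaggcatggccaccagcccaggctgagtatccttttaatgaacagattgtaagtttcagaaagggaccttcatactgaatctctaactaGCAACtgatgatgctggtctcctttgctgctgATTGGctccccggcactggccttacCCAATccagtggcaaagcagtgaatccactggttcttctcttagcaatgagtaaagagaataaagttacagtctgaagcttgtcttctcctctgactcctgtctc
RT1-Ba: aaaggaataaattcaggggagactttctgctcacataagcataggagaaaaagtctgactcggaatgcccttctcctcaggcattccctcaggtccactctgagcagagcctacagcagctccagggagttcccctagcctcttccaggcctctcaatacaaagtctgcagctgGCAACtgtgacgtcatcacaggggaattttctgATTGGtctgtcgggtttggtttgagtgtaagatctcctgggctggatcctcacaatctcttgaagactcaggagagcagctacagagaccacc
Cd74: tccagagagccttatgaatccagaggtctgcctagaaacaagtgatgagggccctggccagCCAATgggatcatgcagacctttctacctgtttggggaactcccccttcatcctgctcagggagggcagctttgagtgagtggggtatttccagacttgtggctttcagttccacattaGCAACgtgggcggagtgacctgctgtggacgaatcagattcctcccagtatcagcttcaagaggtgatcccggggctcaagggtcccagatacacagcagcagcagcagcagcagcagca

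In all 3 class II chains GCAAC stood upstream of ATTGG on the strand of the gene. The first bases of these motifs were 33 bases apart in RT1-Da, 32 in RT1-Db1 and 33 in RT1-Ba. GCAAC began 82, 112 and 76 bases before the start in the same order. Cd74 held GCAAC 70 bases before the start, and its ATTGG was read on the opposite strand 189 bases before it. By themselves these short words are common: of 33469 promoters of this length, 37.5% held ATTGG and 35.1% held GCAAC on either strand. GCAAC followed on the same strand by ATTGG with 10 to 30 bases between them was found in 0.831% of promoters. Of the 22 genes of a class II presentation list, 19 had a promoter in the table and 6 held that pair, namely RT1-Da, RT1-Db1, RT1-Db2, RT1-Ba, RT1-DOa and RT1-DOb. Since the pair and its spacing were chosen after the sequences had been seen, nothing is read from the gap between these shares. The arrangement was thus alike for RT1-Da, RT1-Db1 and RT1-Ba, whose intensities are given below. A match of letters describes the window and says nothing of binding in these cells.

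The promoter of Lyz2 is shown because this gene had the widest difference of the set. It lies on the minus strand at chr7:54797962-54798261, and capitals mark GAGGAA, letters found in many sites of the myeloid ETS factor PU.1. The motif was chosen after the values had been seen, and it was searched on both strands, as GAGGAA and TTCCTC.
Lyz2: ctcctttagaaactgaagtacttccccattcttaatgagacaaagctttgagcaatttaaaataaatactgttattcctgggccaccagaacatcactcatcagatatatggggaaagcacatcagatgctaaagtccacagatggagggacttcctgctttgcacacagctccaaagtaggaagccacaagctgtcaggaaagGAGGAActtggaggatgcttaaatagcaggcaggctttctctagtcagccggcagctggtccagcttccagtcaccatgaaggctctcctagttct

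GAGGAA began 46 bases before the start of Lyz2. These letters stood on either strand in 27.6% of the 33469 promoters. Among the members, 9 of 10 had a promoter in the table, and 6 of those held the letters, which are Lyz2, Ctss, Cd53, Cd74, Cd14 and Ptprc. The motif and the genes were chosen with the intensities known, so nothing is read from the gap between these shares. Here too a match of letters says nothing of binding in these cells.

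Lyz2 encodes the lysozyme of macrophages, which cleaves bacterial cell wall peptidoglycan. Its single probe set, rc_AA892775_at, read 287.8 in aortic cells and 33619.5 in endocardial cells. The aortic value was under the floor and the endocardial value far above the background limit. Lyz2 was therefore at least 52.9-fold higher in endocardial cells against the floor and at least 19.3-fold against that limit. In these bulk cultures, more cells that carry a transcript and more transcript per cell cannot be told apart.

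Ctss, the lysosomal cysteine protease that finishes cutting the invariant chain, followed at lower intensity. Its probe set L03201_at read 328.6 in aortic and 3376.2 in endocardial cells. The bound was 5.31-fold against the floor and 1.94-fold against the background limit. Only the endocardial value passed either limit.

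Cd74 was the best covered of the genes, with 4 probe sets, all brighter in endocardial cells. Probe set X13044_at read -395.9 in aortic and 1904.3 in endocardial cells, and its companion X13044_g_at read -186.6 and 1890.6. Both endocardial values lay just above the background limit, each at 1.09 times it. X14254cds_at read 1451.5 and 2861.4, a measured 1.97-fold difference, with its endocardial value 1.64 times that limit. The fourth, X14254cds_g_at, read -1838.8 and 1144.7, so its wide gap of 2983.5 units came largely from a negative aortic value, and it passed the limit on neither array. X14254cds_at alone exceeded the floor in both cultures, and no Cd74 probe set had an aortic value above the limit.

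The class II chains gave 3 different pictures. RT1-Da, an alpha chain of the D isotype, was brighter in endocardial cells. M15562_g_at read 480.7 in aortic and 2651.5 in endocardial cells, at least 4.17-fold against the floor and at least 1.52-fold against the background limit. M15562_at, designed from the same sequence record, read -19.3 and 900.6 and stayed under that limit on both arrays.

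RT1-Db1, a beta chain of the same isotype, was bright on both arrays with 1 probe set and dim with the other. X53054_g_at read 2755.1 in aortic and 2843 in endocardial cells, a ratio of 1.03 with both values above the background limit. X53054_at read -162 and -487.2, under the floor on both. The probe set that could be measured thus had nearly the same intensity on the 2 arrays, unlike RT1-Da.

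RT1-Ba, the alpha chain of the B isotype, had 3 probe sets that did not go one way. X07551cds_s_at read 147.7 in aortic and 2131.4 in endocardial cells, at least 3.35-fold higher against the floor and at least 1.22-fold against the background limit. K02815_s_at read 2857.3 and 1186.7, a measured log2 ratio of -1.27, with only the aortic value above that limit. M22366_at read 1218.1 and 517.5, under the limit on both arrays. The lead array therefore depended on the probe set, and no direction is given for RT1-Ba. The suffix _s_at marks probe sets that can match more than 1 transcript, and the pairing of probe sets with genes was taken from the annotation and not checked by sequence.

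Cd14, the co-receptor that hands bacterial lipopolysaccharide to Tlr4, was above the background limit on both arrays with both probe sets. AF087943_s_at read 2290.9 in aortic and 3511.5 in endocardial cells, a ratio of 1.53. AF087944mRNA_s_at read 4200.6 and 4629.4, a ratio of 1.10. Cd14 signal was thus clear in aortic cells as well, and neither probe set reached 2-fold.

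Pf4, a chemokine stored in platelet granules and also made by some macrophages, was read by rc_AI169104_at. It gave 333.9 in aortic and 1811.4 in endocardial cells, at least 2.85-fold higher against the floor but only 1.04 times the background limit.

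Cd53 and Ptprc mark leukocytes in general. Cd53, a tetraspanin of the leukocyte surface, read 593.1 in aortic and 2010.5 in endocardial cells with M57276_at, at least 3.16-fold against the floor and at least 1.15-fold against the background limit. The aortic value lay close under the floor. Ptprc, the receptor phosphatase known as CD45 on nearly all blood leukocytes, had no probe set above that limit on either array. M25823_s_at read 1171.1 and 1103.2, K03039mRNA_s_at 0.9 and 231.8, and M10072mRNA_s_at -924.3 and -251.7. The defining leukocyte marker was therefore not seen above the background limit on either array.

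**Figure D1:**
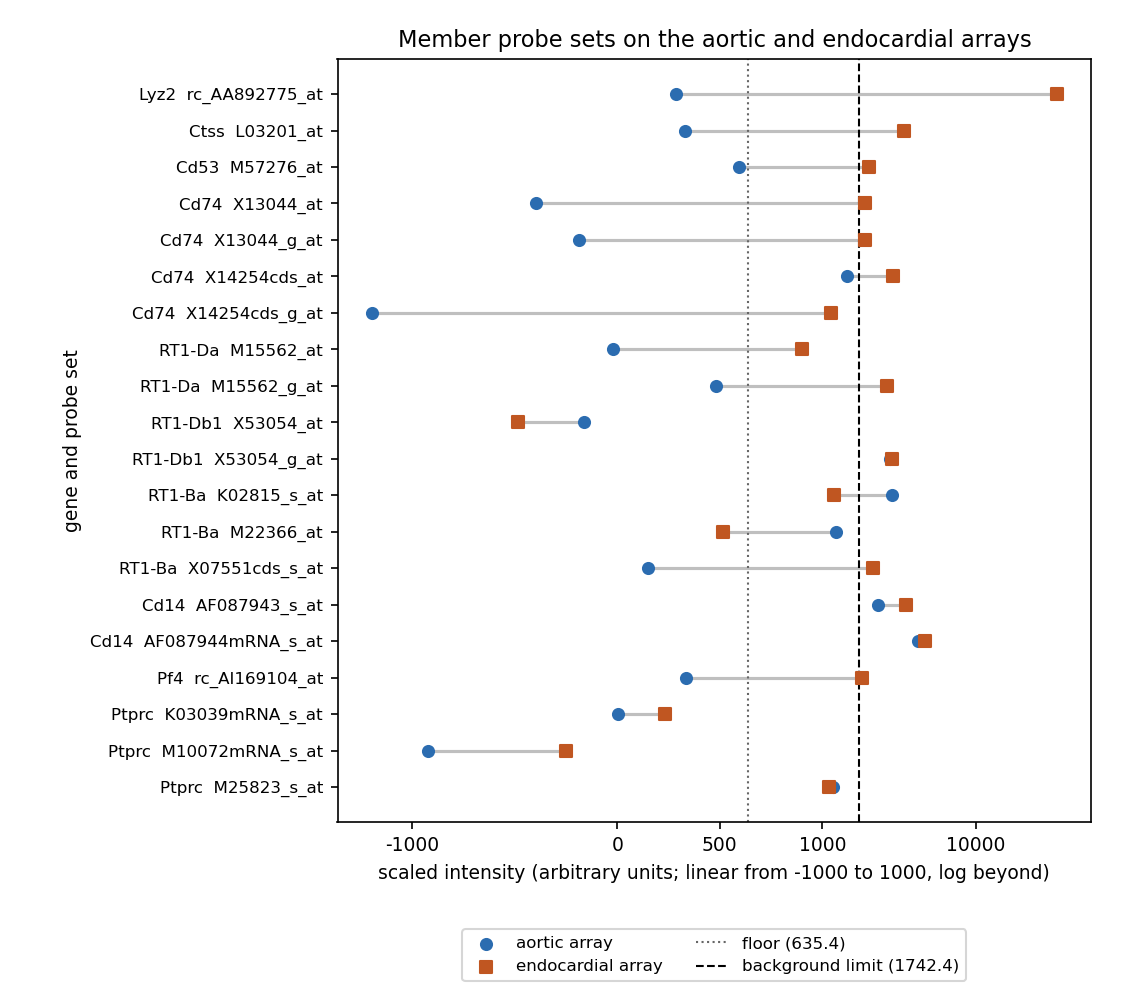
Scaled intensity in arbitrary units (linear from -1000 to 1000, logarithmic beyond) of each of the 20 member probe sets, 1 row each, in aortic cells (circle) and endocardial cells (square), with the floor at 635.4 (dotted line) and the background limit at 1742.4 (dashed line). Lyz2 runs from 287.8 to 33619.5, while most other members end between 900.6 and 3511.5 in endocardial cells, near the dashed line.

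Read together, 16 of the 20 probe sets were brighter in endocardial cells and 4 in aortic cells. That count includes 3 probe sets at or under the floor on both arrays. The same count was not made over all probe sets, so nothing is read from it. Among the 38 background controls, 23 were also brighter in endocardial cells. For the 20 member probe sets, the endocardial value passed the background limit for 12 and the aortic value for 4. Of these, 9 passed it in endocardial cells alone, 1 in aortic cells alone (K02815_s_at of RT1-Ba) and 3 on both, which were the Cd14 pair and X53054_g_at of RT1-Db1. The remaining 7 passed it on neither. Over all single-symbol probe sets, 32.7% passed it in endocardial cells and 32.6% in aortic cells. The shares that passed in 1 culture alone were 3.74% for endocardial and 3.58% for aortic cells. Since the genes were chosen on this contrast, nothing is read from the gap between the members and these shares.

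With values under the floor raised to it, 17 of the 20 probe sets could be measured, of which 8 were 2-fold or more higher in endocardial cells and 1 was 2-fold or more lower. Of all 3975 single-symbol probe sets measured that way, 6.82% were 2-fold or more higher and 4.70% 2-fold or more lower. Because the choice of genes used this contrast, nothing is read from the gap between these shares. In addition, 10 of the 17 were above the floor in endocardial cells alone and so could only give a positive ratio. By gene, taking the median over measured probe sets, 6 of 10 were 2-fold or more higher, namely Lyz2, Ctss, Cd53, Pf4, RT1-Da and Cd74, and 0 were lower. The background was 5.93% higher and 4.16% lower of 2935 genes. The median log2 ratio of the 10 genes was 1.28, beside -0.02 for all measured genes. For the same reasons nothing is read from the gaps by gene.

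Raising values to the background limit left 13 of the 20 probe sets measured, and only Lyz2 was then 2-fold or more higher. No member probe set was 2-fold or more lower by that rule, and the count by gene was 1 of 9 higher and 0 lower. Of 2545 single-symbol probe sets measured so, 4.79% were higher and 3.18% lower, and of 1904 genes 3.99% were higher and 2.36% lower. Ctss was not counted, because its lower bound against that limit was 1.94-fold, and its true fold could be larger. The median log2 ratio of the 9 genes was 0.21, beside -0.02 for all genes. Of the 13 probe sets, 9 were above the background limit in endocardial cells alone and so could only give a positive ratio. Because the choice of genes used this contrast, nothing is read from these gaps.

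**Figure D2:**
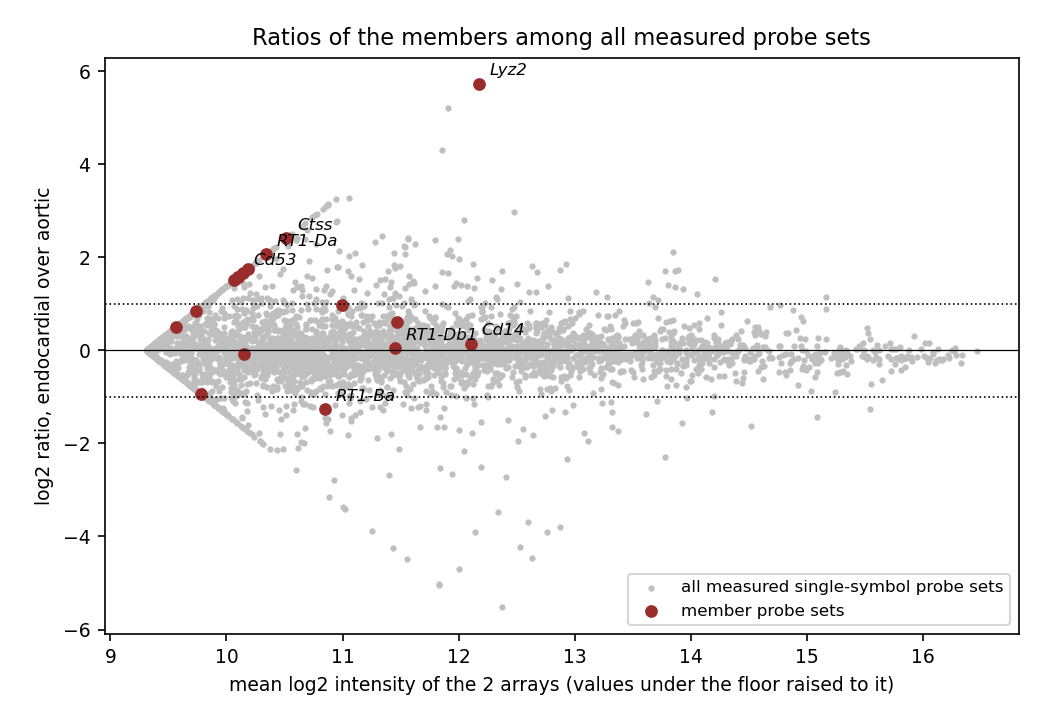
The log2 ratio of endocardial over aortic intensity against the mean log2 intensity of the 2 arrays, with values under the floor raised to it, for 3975 measured single-symbol probe sets (grey) and the 17 measured member probe sets (red). Dotted lines mark 2-fold, Lyz2 lies at a log2 bound of 5.73, and the members on the straight upper edge are those no higher than the floor in aortic cells.

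**Figure D3:**
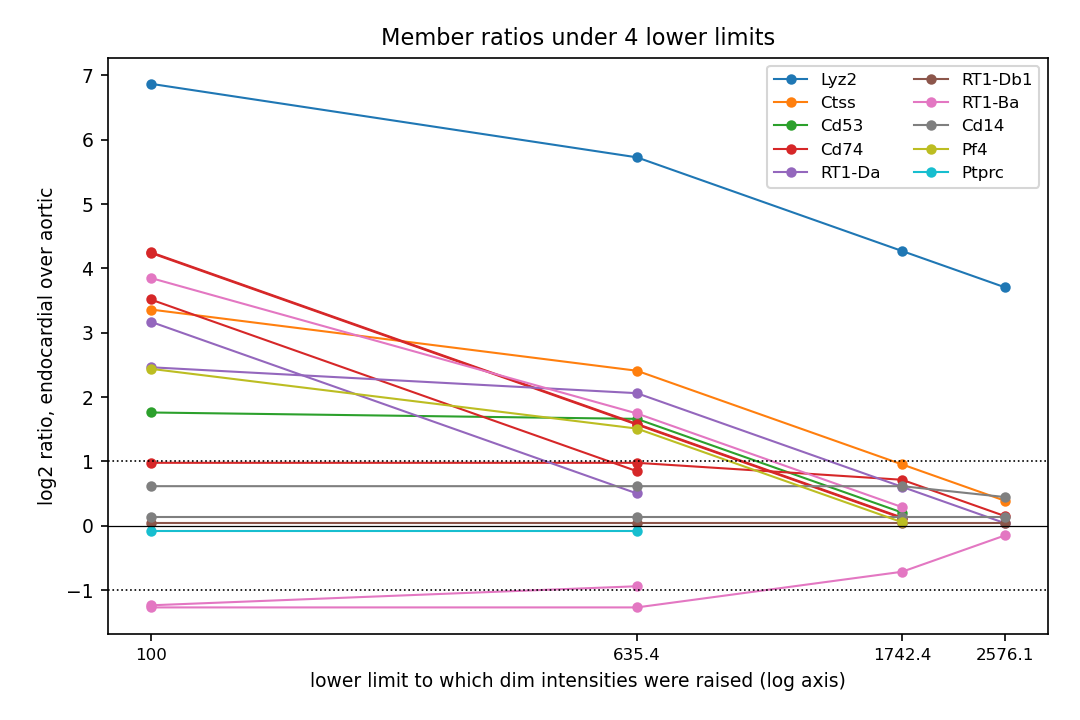
The log2 ratio of endocardial over aortic intensity of the 17 member probe sets measured against the floor (1 line each, coloured by gene). Dim intensities were raised to 100, 635.4, 1742.4 or 2576.1 (log axis). Lyz2 stays above 2-fold (dotted line) at every limit, Cd14 and RT1-Db1 do not move between 100 and 1742.4, and every other line that starts past 2-fold is within 2-fold at 1742.4 or ends before it because the probe set is not measured there.

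A further yardstick, chosen after the values had been seen, was how far the background controls themselves differed between the arrays. Endocardial minus aortic, the 38 controls ranged from -503.7 to 1168.2 units with a median of 57.2, and 23 of them were brighter in endocardial cells. Differences larger than 1168.2 were found for 12 of the 20 member probe sets, 11 brighter in endocardial and 1 in aortic cells. Among all 7006 single-symbol probe sets, 11.0% were higher and 8.92% lower by more than that, and since the genes were chosen on this contrast nothing is read from the gap. Apart from Lyz2, with a difference of 33331.8, those above 1983.7 units were Ctss with 3047.6, Cd74 with 2983.5, 2300.2 and 2077.2, and RT1-Da with 2170.8. The others were RT1-Ba with 1983.7 for X07551cds_s_at and -1670.6 for K02815_s_at, Pf4 with 1477.5, Cd53 with 1417.3, Cd74 with 1409.9 for X14254cds_at and Cd14 with 1220.6. Ptprc and RT1-Db1 had no probe set that differed by more than the controls did.

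No other measured gene of the class II pathway passed 2-fold. Apart from the members, 11 of 17 listed genes were on the array under that symbol alone, and 10 were measured against the floor, with 0 higher and 0 lower by 2-fold or more and a median log2 ratio of 0.03. RT1-DMa, part of the DM exchange factor that loads peptide, read 1169.1 in aortic and 2862.4 in endocardial cells with U31598_s_at, a ratio of 2.45. Its other probe set read -126.3 and 667.6, so the gene value was a log2 ratio of 0.68. RT1-DMb, its partner chain, passed the floor with 1 of 3 probe sets, which read -897.1 and 1205.1. RT1-DOa, a modulator of DM, was dimmer in endocardial cells, at 4505.2 and 3026, a log2 ratio of -0.57. RT1-Bb, the partner of RT1-Ba, passed the background limit with none of its probe sets.

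Among genes of proteins that act on the class II promoter, the 2 above the background limit were near a ratio of 1. Rfx5, a subunit of the RFX complex at the X box, read 2349.1 in aortic and 2093.4 in endocardial cells, a log2 ratio of -0.17. Nfyc, a subunit of NF-Y at the Y box, had a gene log2 ratio of 0.10. Under that limit, Nfya, Nfyb and Creb1 had log2 ratios of -0.45, -0.04 and 0.39. Ciita was not read under its symbol alone. The protease Ctsl, which can also cut the invariant chain, was dimmer in endocardial cells with both probe sets, at a gene log2 ratio of -0.64.

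Interferon gamma signalling, the main inducer of class II genes outside the immune system, went both ways. Of 8 measured genes 1 was 2-fold or more higher and 1 lower, and against the background limit the same genes, 1 higher and 1 lower of 7, passed 2-fold. The receptor chain Ifngr1 read 1219.6 in aortic and 4330.1 in endocardial cells, at least 2.49-fold higher against that limit. The receptor kinase Jak2 was lower with all 3 probe sets, with a gene log2 ratio of -1.21. The interferon-responsive factor Irf1 had a log2 ratio of 0.29, and the immunoproteasome subunit Psmb8 of 0.94 with its aortic value under the background limit. The peptide transporter chain Tap1 was above that limit on both arrays with 1 of 2 probe sets, at 2962.9 and 4296.9, as was the kinase Jak1 at 4145.5 and 3182.5. Psmb9, another immunoproteasome subunit, read 1266.5 and 1526.7 with D10757_at but 2100.9 and 1454.5 with D10757_g_at. Ifng itself, Irf2 and the interferon-induced Gbp2 were under the floor on both arrays.

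Lipopolysaccharide sensing beyond Cd14 had 5 measured genes, of which 0 were 2-fold or more higher or lower. Tlr4, the receptor that takes over from Cd14, was under the floor on both arrays with both probe sets, as were Tnf and Nos2. Lbp, the lipopolysaccharide-binding protein, read 4428.4 in aortic and 4556.6 in endocardial cells. The signalling factor Nfkb1 read 3743.6 and 6165.9, a ratio of 1.65.

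Other monocyte and macrophage genes were mixed. Without Lyz2 and Cd14, 17 of 34 listed genes were on the array and 9 were measured, of which 2 were 2-fold or more higher and 1 lower, with a median log2 ratio of 0.76. Mmp12, the macrophage elastase, read 267.8 in aortic and 6087.5 in endocardial cells, at least 3.49-fold higher against the background limit. The Fc receptor gene Fcgr2b read 232.8 and 1407.6, at least 2.22-fold against the floor but under that limit on both arrays. Hmox1, the haem-degrading enzyme, was lower with both probe sets (gene log2 ratio -1.05). Against the background limit 1 of 6 measured genes, Mmp12, was higher and 1, Hmox1, was lower.

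Defining macrophage markers were dim, and some passed the floor. Aif1, a calcium-binding protein of macrophages, passed it in endocardial cells alone, at -388.3 in aortic and 859.5 in endocardial cells with U10894_s_at and at 297.7 and 1045.2 with U17919_s_at, while U33471_at was under it on both. The complement chain C1qc read 661.6 and 1276.5 with 1 of 3 probe sets, a ratio of 1.93, and the other two were under the floor on both. All of these stayed under the background limit. Csf1r, the receptor for the macrophage growth factor, read 588.1 in aortic and 351.3 in endocardial cells, and the integrin Itgam read -8.6 and 56.5. C1qb, Ccl3, Ccl4, Ccr2, Cx3cr1 and Clec10a were also at or under the floor on both. The brighter genes of the list are made by many cell types: Ctsd (gene log2 ratio 0.89), Lgals3 (0.76), Ctsb (0.01) and Cebpb (-0.60). The intensities of the 25 probe sets of this list without the members, with negative values set to 0, summed to 105094 in aortic and 111849 in endocardial cells. These sums rest on a few bright genes: without Hmox1 they were 62719 and 91415, and without Ctsd 84548 and 74014, as looked at after the values had been seen. Of those 25, 8 passed the background limit in aortic and 9 in endocardial cells. The part of macrophages in the Lyz2, Ctss and Cd74 differences was not tested.

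Markers of other blood cells were mostly dim. Without Cd53 and Ptprc, 0 of 5 measured pan-leukocyte genes passed 2-fold. Among them Cd48 read 4732.5 in aortic and 6063.9 in endocardial cells, Cd37 read 277 and 1138.5, and Spn and Vav1 were under the floor on both. Cd44, an adhesion receptor that many other cell types carry, read 6190.1 and 4350.8 with M61875_s_at and was under the floor with its other probe sets. None of the 13 T lymphocyte, 7 natural killer cell or 4 dendritic cell probe sets passed the background limit on either array. Those under the floor on both were Cd3d, Cd247, Cd8a, Cd2, Cd5, Cd28 and Il2ra of T lymphocytes, Klrb1a, Klrd1, Prf1, Ncr1 and Ncr3 of natural killer cells, and Cd86 and Cd40 of dendritic cells. Likewise the neutrophil genes S100a8, S100a9, Cxcr2 and Defa5, with 4 probe sets, and Cd79b of B lymphocytes were under the floor on both. The mast cell protease gene Mcpt1l1 read 428.6 and 4846 with U67915_at, and 141.8 and -8.3 with S69206_s_at. The mast cell tryptase Tpsb2 was above the background limit on both arrays, at 4340 and 4469, and the tryptase Tpsab1 read 1135.4 and 741. The mast cell markers Cpa3, Fcer1a, Ms4a2, Kit, Mcpt1 and Mcpt4 were under the floor on both arrays. Of the 3 measured mast cell genes, Mcpt1l1 was 2-fold or more higher, also against the background limit, and 0 were lower.

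Platelet and red cell genes are given beside Pf4. Itga2b, the platelet integrin chain, read 1440.8 in aortic and 1461.1 in endocardial cells, and Gp5 was under the floor on both. Of 2 platelet genes measured besides Pf4, 0 passed 2-fold. Hbb, a haemoglobin chain, had a log2 ratio of 0.08. Slc4a1, the red cell anion exchanger, read 3072.1 and 3007.5 with J04793_at and stayed under the background limit with its other probe sets. Alas2, the haem synthesis enzyme of red cell precursors, read 1113.7 and 2757.5, at least 1.58-fold higher against the background limit. The part of blood cells in the Pf4 difference was not tested.

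Cells of the vessel and heart wall are given for comparison. Of 6 measured endothelial genes 2 were 2-fold or more higher, Edn1 (log2 ratio 1.13) and Ets1 (1.15), and 1 was lower, Ace (-1.16). Of 10 fibroblast genes 1 was higher, the matrix protein Postn (2.98), and 2 were lower, Dcn, a proteoglycan, (-3.80) and Lox, which cross-links collagen, (-1.53), with a median of -0.22. The bright collagens Col1a1, Col1a2 and Col3a1 had gene log2 ratios of -0.06, -0.26 and -0.17, and the fibronectin gene Fn1 of -0.03. Of 7 smooth muscle genes 2 were higher, Itga8, an integrin chain, (1.21) and Myl9, a light chain of myosin, (1.54), with a median of 0.71. Myh11, a myosin heavy chain, was the 1 lower, at 2532.8 in aortic and 614.2 in endocardial cells by 1 of 3 probe sets. The contractile genes Tagln, Cnn1 and Cald1 were at 0.23, 0.97 and 0.61, and Des was under the floor on both arrays. Of 5 cardiomyocyte genes 0 were higher and 1 was lower, Myh6, with 1589.2 in aortic and 569.4 in endocardial cells by 1 of 3 probe sets, under the background limit on both. Tnni3, a troponin chain, had a log2 ratio of 0.15, and Nppb and Actc1 were under the floor on both. Against the background limit the fibroblast counts were the same, Edn1 was the single endothelial gene higher, of 5, with 0 lower, and Myl9 the single smooth muscle gene higher, of 7, with 0 lower. By that limit 1 cardiomyocyte gene was measured, Tnni3, with 0 higher and 0 lower.

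**Figure D4:**
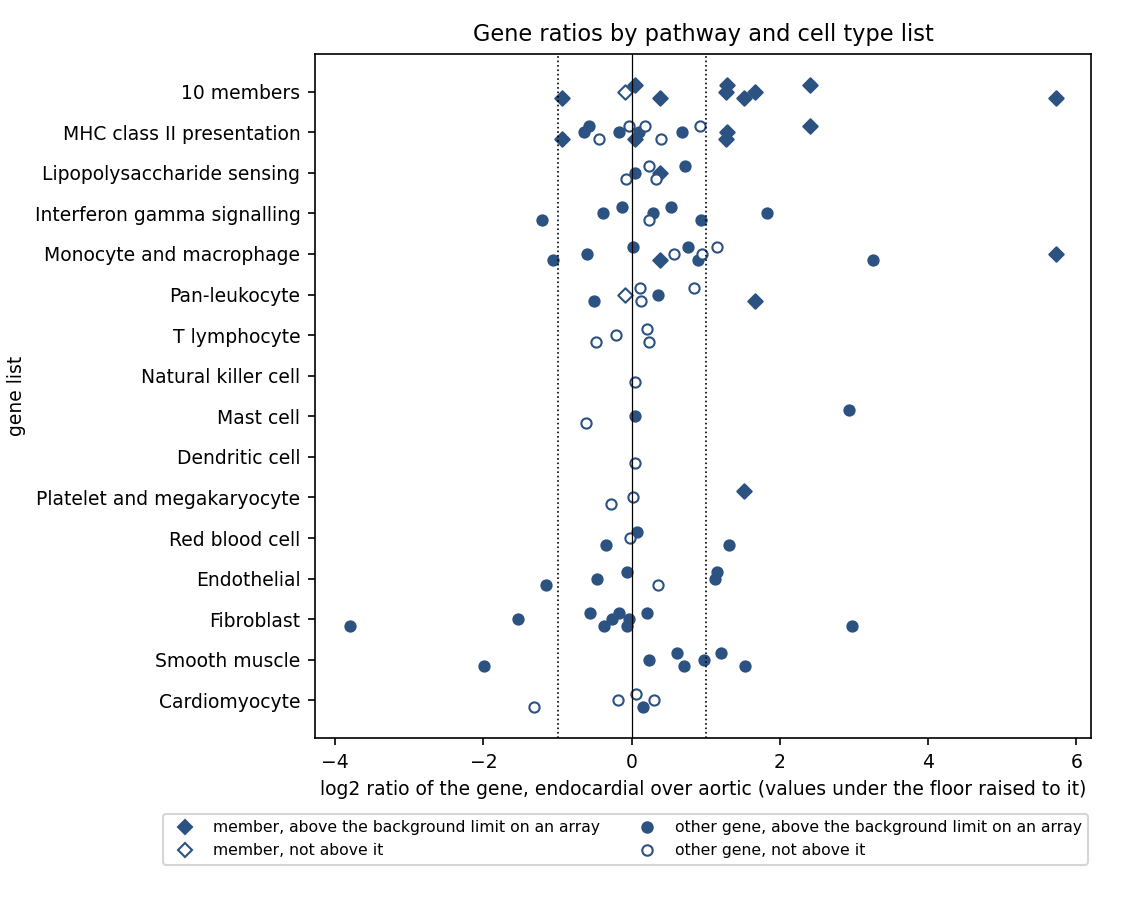
The log2 ratio of endocardial over aortic intensity of each measured gene (median over its probe sets, values under the floor raised to it) by pathway and cell type list, with members as diamonds, other genes as circles, and filled symbols for genes above the background limit on at least 1 array. Lyz2 at 5.73 lies to the right of every other gene drawn, and the class II presentation genes drawn as circles lie within the dotted 2-fold lines.

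The genes most like Lyz2 were taken as those at or under the background limit in aortic cells with the highest bound against it, over the 2 arrays, among 262 such probe sets. The muscle Z-disc protein Pdlim3 came next, at 283.7 in aortic and 23283 in endocardial cells. Il1rl1, the receptor for interleukin 33, read 836 and 16463.3 with U04319_at but 403.5 and 1084.3 with its other probe set. Sh2b1, an adaptor of receptor tyrosine kinases, read 1600.2 and 11179 with U57391_at but 4010.4 and 4416.5 with U57391_g_at. The complement component C3 was brighter in endocardial cells with both probe sets, at 1566 and 8116.5 and at 685.6 and 6595.4. The secreted phosphoprotein Spp1 read 1312.9 and 6992.2. In the same order of bounds Ctss stood at place 60 and Pf4 at place 231 of the 262.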

How the data were processed

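The deposited table held 1 intensity per probe set and array on a linear scale; which software summarised the probes is not stated there, and near-equal trimmed means of the arrays point to scaling by the authors. The arrays were scaled to the same 2% trimmed mean over 8740 probe sets (factors 1.0006 and 0.9994), leaving out 59 control probe sets. The background limit, 1742.4, is on that scale. Symbols came from the platform annotation, updated through gene identifiers in RefSeq's GRCr8 table: 7006 probe sets had 1 symbol, 308 several and 1426 none, and 6985 matched with 0 changed. A gene was the median log2 ratio of its measured probe sets, those above the limit on at least 1 array. The members and the 17 other lists were chosen with earlier results of these data known. From each list the text names the genes past 2-fold and the brightest above the background limit (at most 6 of each), and markers under the floor on both arrays. Some genes outside these classes, such as Itga2b and Cd37, are also named by no set rule, and others like them, such as Cd52, are not. Log2 ratios of probe sets of the same gene, above the floor on both arrays, had an SD of 0.39 over 625 genes and 1432 probe sets. With 1 array per origin no test was run and no p-value is given; the number of arrays limits the precision. Counting steps were tested on simulated data, with changes planted and calls judged only in probe sets bright in aortic cells. Dim aortic values like those of most members were outside that test. Promoters came from RefSeq. Python 3.11.15, pandas 2.3.3 and numpy 2.4.6 were used.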

Additional observations from a re-analysis of the deposited data

How the results depend on the processing

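The counts of members past 2-fold depended on the lower limit and hardly on the scaling. Without rescaling, and after quantile normalization, centring or loess, 8 or 9 member probe sets were 2-fold or more higher and 1 was lower, and 6 genes were higher. With dim values raised to 2576.1, the 75th percentile, or to the background limit of 1742.4, 1 probe set and 1 gene, Lyz2, were higher and 0 probe sets were lower. With a limit of 100, 11 probe sets were higher and 2 lower, and 1 gene was lower. The monocyte and macrophage list, Lyz2 and Cd14 included, then had 6 genes higher and 2 lower, beside 3 and 1 against the floor. Taking only the brightest probe set per gene, 5 genes were higher and 1, RT1-Ba, was lower. Of 106 member log2 ratios recomputed, 83 moved by less than 0.39, 23 by more and 0 called ones changed sign, and all 23 came from the 3 changes of limit. Lyz2 was at least 2-fold higher under every alternative run, with log2 values from 3.71 to 6.87. The highest, with a limit of 100, is the plain ratio to an aortic value that lies under both the floor and the background limit, and is not a bound. Where the aortic value is under the limit the fold follows the limit by construction. No paired analysis was possible because each origin had 1 array.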
